A study of Mus musculus with 12 samples.

Results

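The 10 reactive astrocyte genes described here are Gfap, Vim, Ezr, Serpina3n, Lcn2, Timp1, Osmr, S1pr3, Cd44 and Steap4. Apart from Ezr, they are genes widely used as markers of astrocytes that respond to injury or inflammation. Ezr encodes a protein found in the fine processes of astrocytes. The 10 genes were taken by symbol from a table of 23354 gene symbols measured by RNA-seq in mouse cortex. All 10 were found, each in 1 row, and no member was at 0 in any library. Of the 10, 8 averaged 0.5 FPKM (fragments for each kilobase of transcript, relative to all mapped fragments of the library) or more across the 12 libraries and stand among the 14075 symbols tested. Steap4 and Timp1 lay below this filter, with means of 0.182 and 0.460 FPKM. Lcn2 passed with a mean of 0.523 FPKM, which it reached only through its level in 1 group, as given below.

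The study asked what loss of a DNA methyltransferase in oligodendrocyte lineage cells does to gene expression in the cortex. Cortices of C57BL/6 mice were taken on postnatal day 16, and each of the 4 groups held 3 animals. Dnmt1 CKO mice (Olig1cre/+;Dnmt1flox/flox) stood against Dnmt1 Control littermates (Olig1+/+;Dnmt1flox/flox), and Dnmt3a CKO mice (Olig1cre/+;Dnmt3aflox/flox) against Dnmt3a Control littermates (Olig1+/+;Dnmt3aflox/flox). Every mouse of a line thus carried the floxed alleles, and only the CKO (conditional knockout) mice carried cre, which sits in the Olig1 locus and leaves them 1 intact Olig1 allele. Cre from Olig1 acts in the oligodendrocyte lineage, so the levels below, read in whole cortex, mix recombined cells with all other cells of the tissue.

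Astrocytes are star-shaped glia that take up transmitters, buffer ions and touch blood vessels. When tissue is damaged or inflamed they become reactive: they make more intermediate filament protein, chiefly GFAP and vimentin, and secrete protease inhibitors and acute-phase proteins. Cytokines of the interleukin-6 family, which signal through gp130 and STAT3, are known to drive many of these genes.

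The promoters of the 3 members that passed the test in the Dnmt1 line (Gfap, Serpina3n and Ezr) and of Lcn2, the member with the largest change in that line, are shown because the deleted enzymes methylate cytosines that stand before guanines (CpG). Each run is 260 bases, 5′ to 3′, from 250 bases before the start of transcription to 10 bases after it, as RefSeq places it on GRCm38.p6, and capitals mark CpG dinucleotides.
Gfap, chr11:102897191-102897450, minus strand: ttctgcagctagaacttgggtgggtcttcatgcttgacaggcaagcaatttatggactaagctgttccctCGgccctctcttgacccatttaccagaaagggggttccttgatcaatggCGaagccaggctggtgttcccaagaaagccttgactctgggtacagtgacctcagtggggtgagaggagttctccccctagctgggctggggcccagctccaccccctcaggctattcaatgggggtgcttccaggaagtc
Serpina3n, chr12:104406458-104406717, plus strand: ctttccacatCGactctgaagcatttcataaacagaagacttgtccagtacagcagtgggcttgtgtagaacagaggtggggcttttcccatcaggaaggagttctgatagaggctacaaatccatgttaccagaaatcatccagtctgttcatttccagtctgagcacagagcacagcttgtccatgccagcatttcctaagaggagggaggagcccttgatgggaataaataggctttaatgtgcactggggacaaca
Lcn2, chr2:32387730-32387989, minus strand: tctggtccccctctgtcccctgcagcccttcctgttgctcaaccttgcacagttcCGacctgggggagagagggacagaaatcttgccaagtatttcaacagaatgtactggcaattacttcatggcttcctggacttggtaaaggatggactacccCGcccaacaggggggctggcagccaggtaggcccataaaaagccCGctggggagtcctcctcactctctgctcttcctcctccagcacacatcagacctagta
Ezr, chr17:6782771-6783030, minus strand: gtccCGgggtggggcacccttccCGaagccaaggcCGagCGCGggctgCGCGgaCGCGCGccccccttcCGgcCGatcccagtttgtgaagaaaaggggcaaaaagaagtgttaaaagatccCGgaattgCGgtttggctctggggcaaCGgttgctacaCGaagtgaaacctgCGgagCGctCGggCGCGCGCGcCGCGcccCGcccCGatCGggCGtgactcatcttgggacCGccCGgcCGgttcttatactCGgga
The Ezr promoter is dense in CpG and the other 3 are sparse. In the 300 bases that run to 50 after the start, Ezr had 38 CpG, and Gfap, Serpina3n and Lcn2 had 3 each. The median over 32851 mouse promoters of this length was 7, with quartiles of 3 and 20. The other members had 6 (Cd44), 8 (Timp1), 11 (Vim), 14 (S1pr3), 16 (Steap4) and 22 (Osmr). The letters TTCNNNGAA, which STAT factors are known to bind, were found in Gfap, starting 2 bases before the start, and in Steap4, starting 116 bases before it. They were found in 8.3% of all promoters. TGANTCA, a loose form of the AP-1 motif, was found in Ezr, 32 bases before the start, and in Osmr, 4 bases after it. It was found in 7.81% of all promoters. The AP-1 motif proper has C or G as its middle base. Ezr holds TGACTCA, which meets this, and Osmr holds TGATTCA, which does not. Both motifs were searched on both strands, and a match is a description of the sequence, not of binding. For Gfap and Lcn2 the RefSeq start lies inside the longer span that GENCODE gives the gene. Methylation was not measured in these data.

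In the GENCODE annotation of GRCm38, the build also called mm10, the gene Gfap spans chr11:102887336-102900912 on the minus strand with 9 exons in its longest RefSeq transcript. Serpina3n spans chr12:104406729-104414329 on the plus strand with 5 exons. Lcn2 spans chr2:32384633-32388252 on the minus strand with 6 exons, and Ezr spans chr17:6738041-6782784 on the minus strand with 13 exons. Serpina3n belongs to a gene cluster, and 6.90% of the 50-base words of its transcripts also occur in Serpina3f, Serpina3g, Serpina3m or Serpina3e-ps. The first 3 of these copies were listed at 0 to 0.312 FPKM. An exon of Ezr overlaps Sytl3 on the other strand, and the library kit does not mark strand; Sytl3 was at 0.0152 to 0.169 FPKM.

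Estimated from the smallest steps between low values, 1 fragment on 1 kb of usable length was worth 0.0215 to 0.0251 FPKM in these libraries. Usable length is the transcript length less an assumed fragment length of 200 bases. Dnmt1 itself was at 10.6, 10.2 and 9.78 FPKM in the Dnmt1 Control libraries and at 7.26, 9.11 and 9.09 in the Dnmt1 CKO libraries, lower without overlap but not past the test (adjusted p = 0.29). Dnmt3a was at 31.1, 16.9 and 28.7 FPKM in the Dnmt3a Control libraries and at 13.6, 14.2 and 15.4 in the Dnmt3a CKO libraries. The library labelled Dnmt3a Control replicate 2 thus lies nearer to the CKO libraries, while its Olig1 level, 49.8 FPKM, lies with the controls. The changes of the 8 tested members in the Dnmt3a line, and the differences between the lines printed for them, are given with and without it. Sex is not in the labels, and Xist ranged from near 0 to about 46 to 49 FPKM, with all Dnmt1 CKO libraries between 1.69 and 1.85. The 14 astrocyte markers of a separate list (Aqp4, Aldh1l1, Slc1a2 and others) were all tested, and none was at 0 in any library.

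Gfap, Serpina3n and Ezr rose in Dnmt1 CKO cortices, by 1.37-fold, 1.55-fold and 1.17-fold on group means (n = 3 mice per group), and no member was called in Dnmt3a CKO cortices. With any 1 library of the Dnmt1 line left out, 1 to 2 members were called, and the change of Ezr was the same size in both lines (0.23). Lcn2 was 3.003-fold higher on group means but did not pass the threshold. At 10% FDR (limma's moderated test, Benjamini-Hochberg adjustment over all genes), 3 of the 10 members were called higher in the Dnmt1 line and 0 lower, and 5 of the 8 tested were not called. Over all genes tested, 0.845% were called higher, 2.3% lower and 3.15% in either direction. The log2 changes of the 10 members had a median of 0.20, the 2 below the filter included, and 8 of them were above 0, against a median of -0.02 over all rows tested. The filter let Lcn2 in through the group where it is high, so the count and the median describe the genes and test nothing. Limma called 0 of the 10 members in the Dnmt3a line, where 0.0142% of all genes were called. It also called 0 without the library labelled Dnmt3a Control replicate 2. At an unadjusted p under 0.05 it called 2 of them there, Lcn2 and Ezr, against 7.36% of all genes. The share of all genes at that level in the Dnmt1 line is not given here. Counts at that level in the Dnmt1 line, given below, thus have no background to be read against.

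**Figure D1:**
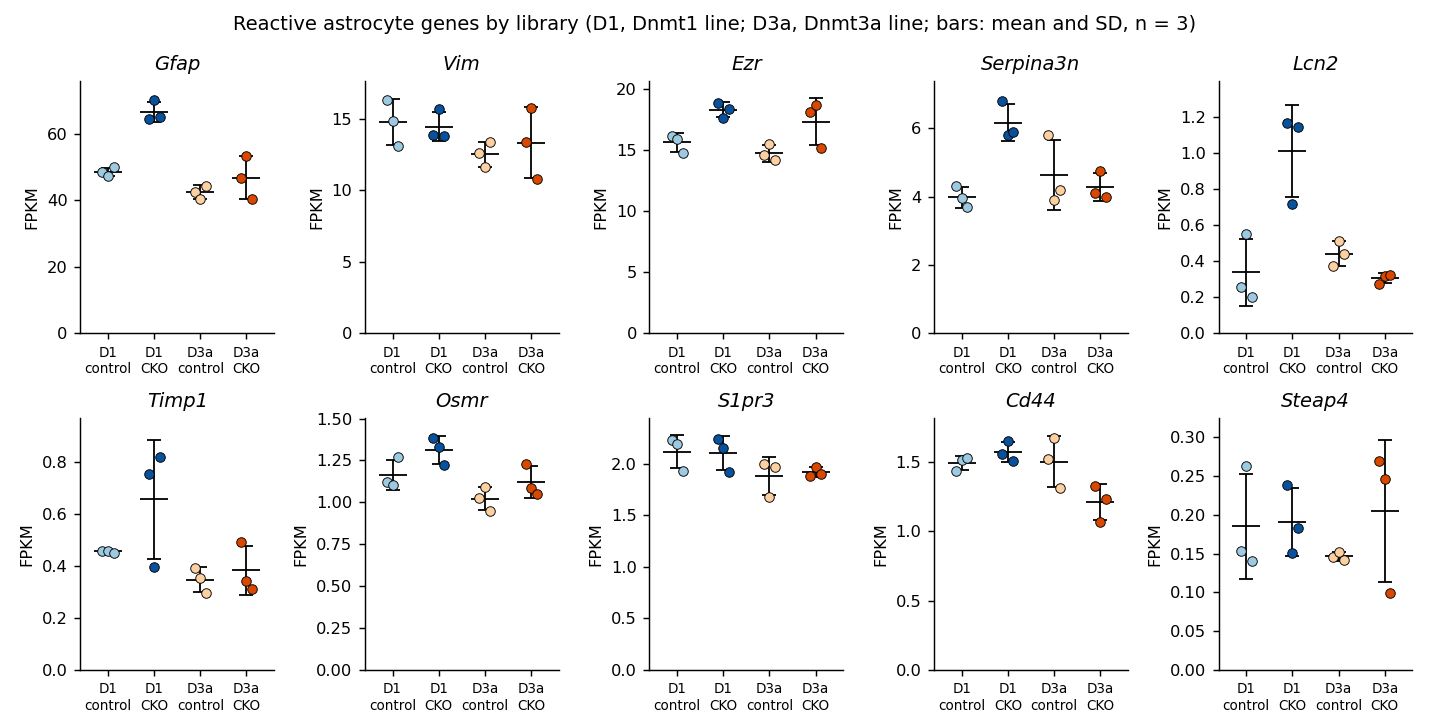
FPKM of each of the 10 genes in the 12 libraries, as points, with the mean and SD of each group of 3 (D1, Dnmt1 line; D3a, Dnmt3a line); each panel has its own linear axis from 0. The Dnmt1 CKO points of Gfap, from 64.6 to 70.1 FPKM, lie above all other libraries, while those of Vim lie among them.

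Gfap encodes the main intermediate filament protein of astrocytes. It was at 48.5, 47.3 and 49.9 FPKM in the Dnmt1 Control libraries and at 64.6, 70.1 and 64.9 in the Dnmt1 CKO libraries. The Dnmt3a Control libraries held 42.5, 40.2 and 44.4 FPKM and the Dnmt3a CKO libraries 46.8, 53.4 and 40.2. All 3 Dnmt1 CKO libraries were above every other library, of which the highest held 53.4 FPKM, a pattern seen in 2.11% of all genes tested. In order of group means, Dnmt1 CKO (66.5 ± 3.10, SD, n = 3) stood above Dnmt1 Control (48.6 ± 1.27), Dnmt3a CKO (46.8 ± 6.56) and Dnmt3a Control (42.4 ± 2.08). The first step of that order exceeds the spread, Dnmt3a CKO overlaps Dnmt1 Control and Dnmt3a Control, and the 2 control groups do not overlap each other. The log2 change in the Dnmt1 line was 0.45 (SE 0.0416, limma adjusted p = 0.0065). The exact permutation test (two-sided) gave p = 0.1, the smallest that 3 against 3 libraries allow, for Gfap as for Serpina3n, Ezr and Lcn2. Among all rows, the log2 change of Gfap stood at the 98.1st percentile. The change in the Dnmt3a line was 0.13 (SE 0.104, adjusted p = 0.78), and 0.10 without the library labelled Dnmt3a Control replicate 2. The change in the Dnmt1 line exceeded that in the Dnmt3a line by 0.32 (SE 0.118), which did not pass the test of the difference (adjusted p = 0.34) except without Dnmt3a CKO replicate 2 (0.42, adjusted p = 0.081). It was 0.36 (adjusted p = 0.35) without the library labelled Dnmt3a Control replicate 2.

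Vim encodes vimentin, the intermediate filament protein that assembles with GFAP in astrocytes and is also made by vascular cells, microglia and progenitors. Its levels were 16.3, 14.9 and 13.1 FPKM in Dnmt1 Control and 13.9, 15.6 and 13.8 in Dnmt1 CKO. They were 12.6, 11.6 and 13.4 FPKM in Dnmt3a Control and 13.4, 15.8 and 10.8 in Dnmt3a CKO. CKO and control overlap in each line. The log2 change was -0.03 (SE 0.0926) in the Dnmt1 line and 0.07 in the Dnmt3a line (0.018 without the library labelled Dnmt3a Control replicate 2), and its sign in the Dnmt1 line turned under quantile normalization and with Xist as a covariate. Of 5 further intermediate filament and linker genes 4 were tested (Nes, Synm, Plec and Des), and limma called 0 in either line (1 and 0 at an unadjusted p under 0.05). The 1 in the Dnmt1 line was Nes, which encodes nestin. It went from 2.45 to 1.86 FPKM (log2 -0.39, limma adjusted p = 0.22). Its groups did not overlap there, where 14.4% of all genes had CKO lower without overlap. The 2 at the highest mean level were Plec, at 11.4 and 12.1 FPKM in Dnmt1 Control and CKO, and Synm, at 6.19 and 5.89.

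Ezr encodes ezrin, which ties the plasma membrane to actin and is found in the fine processes of astrocytes. It was at 16.2, 15.9 and 14.7 FPKM in Dnmt1 Control and at 18.9, 17.6 and 18.3 in Dnmt1 CKO, without overlap. Dnmt3a Control held 14.6, 15.5 and 14.1 FPKM and Dnmt3a CKO 18.1, 18.6 and 15.1, where 1 CKO library fell within the control range. The log2 changes were 0.23 in the Dnmt1 line (SE 0.0473, adjusted p = 0.098) and 0.23 in the Dnmt3a line (SE 0.0866, adjusted p = 0.66). Their difference was 0.00 (SE 0.104). Without the library labelled Dnmt3a Control replicate 2 the change in the Dnmt3a line was 0.26 and the difference -0.035. The call in the Dnmt1 line was lost when any of the 6 libraries of that line was left out, with adjusted p up to 0.30 over all alternatives. Of the ezrin relatives in the list of partners below, Msn and Rdx, which encode moesin and radixin, neither was called.

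Serpina3n encodes a secreted inhibitor of serine proteases. It was at 4.30, 3.95 and 3.69 FPKM in Dnmt1 Control and at 6.81, 5.80 and 5.90 in Dnmt1 CKO. In Dnmt3a Control it was at 5.80, 3.89 and 4.20 FPKM, so that 1 control library of the other line reached the lowest Dnmt1 CKO level, and in Dnmt3a CKO at 4.11, 4.75 and 3.99. In order of group means, Dnmt1 CKO (6.17 ± 0.555, SD, n = 3) stood above Dnmt3a Control (4.63 ± 1.03), Dnmt3a CKO (4.28 ± 0.411) and Dnmt1 Control (3.98 ± 0.305). Each pair of neighbours in that order overlaps, whereas the littermates of the Dnmt1 line do not. The log2 change in the Dnmt1 line was 0.62 (SE 0.0887, adjusted p = 0.031), and it lost its call without Dnmt1 Control replicate 2, Dnmt1 CKO replicate 1 or Dnmt1 CKO replicate 3 (adjusted p up to 0.14). That of the Dnmt3a line was -0.09 (adjusted p = 0.91), and -0.21 without the library labelled Dnmt3a Control replicate 2. The difference between the lines, 0.71 (SE 0.187), had an adjusted p of 0.12 over all libraries, and was called (0.82, adjusted p = 0.076) without that library, as it was with robust eBayes or median-ratio scaling.

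Lcn2 encodes lipocalin-2, a small secreted protein that binds iron-carrying siderophores and is a known product of strongly reactive astrocytes. It was low everywhere: 0.256, 0.551 and 0.202 FPKM in Dnmt1 Control, and 1.17, 0.717 and 1.14 in Dnmt1 CKO. These levels stand for about 7, 16 and 6 fragments in the controls and 36, 22 and 38 in the CKO libraries, so counting error alone is large. Dnmt3a Control held 0.371, 0.511 and 0.440 FPKM and Dnmt3a CKO 0.273, 0.319 and 0.323, the reverse order and again without overlap. Group means were 1.01 ± 0.254 FPKM in Dnmt1 CKO, 0.441 ± 0.0701 in Dnmt3a Control, 0.336 ± 0.188 in Dnmt1 Control and 0.305 ± 0.0275 in Dnmt3a CKO (SD, n = 3). Dnmt1 CKO lies above the other groups, Dnmt1 Control overlaps both groups of the other line, and those 2 groups do not overlap. The log2 change was 1.40 in the Dnmt1 line (SE 0.329, unadjusted p = 0.0055, adjusted p = 0.14). It was -0.41 in the Dnmt3a line (SE 0.115, adjusted p = 0.66), and -0.32 without the library labelled Dnmt3a Control replicate 2. The changes of Lcn2 differed between the lines by 1.81 (SE 0.415, adjusted p = 0.064), and no other tested member passed 10% FDR there, where 0.291% of all genes had a higher change in the Dnmt1 line and 2.12% differed in either direction. Lcn2 stands in this test only because its Dnmt1 CKO level lifts its mean over the filter, so the call is given as a description. The adjusted p was 0.065 with no filter, and a minimum mean of 1 FPKM removes the gene. That call was kept without Dnmt1 Control replicate 2, Dnmt1 CKO replicate 2, Dnmt3a Control replicate 1 or Dnmt3a CKO replicate 3. It was lost without any one of the other 8 libraries, among them the library labelled Dnmt3a Control replicate 2 (1.72, adjusted p = 0.14).

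Groups that do not overlap were thus seen for 4 members in the Dnmt1 line (Gfap, Ezr, Serpina3n and Lcn2), all with CKO higher, where 6.39% of all genes had CKO higher without overlap and 20.8% had no overlap in either direction. In the Dnmt3a line Lcn2 alone had no overlap, with CKO lower, where 5.45% of all genes had CKO lower and 12.8% had either direction.

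Timp1 encodes a secreted inhibitor of matrix metalloproteinases and lies on chrX. It was at 0.457, 0.457 and 0.450 FPKM in Dnmt1 Control and at 0.754, 0.394 and 0.818 in Dnmt1 CKO, so that 2 CKO libraries were above the controls and 1 below. It was at 0.391, 0.352 and 0.295 FPKM in Dnmt3a Control and at 0.491, 0.342 and 0.312 in Dnmt3a CKO. These levels stand for about 9 to 26 fragments. Fitted without the filter, its log2 change was 0.39 in the Dnmt1 line (SE 0.258, adjusted p = 0.60) and 0.10 in the Dnmt3a line (adjusted p = 0.92).

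Among the receptors, Osmr encodes the subunit that joins gp130 to bind oncostatin M. It was at 1.12, 1.10 and 1.27 FPKM in Dnmt1 Control and 1.39, 1.33 and 1.22 in Dnmt1 CKO, and the groups overlap through 1 library each. Dnmt3a Control held 1.03, 1.09 and 0.949 FPKM and Dnmt3a CKO 1.23, 1.09 and 1.05. The log2 changes were 0.16 (SE 0.084, adjusted p = 0.45) and 0.12 (adjusted p = 0.78, and 0.17 without the library labelled Dnmt3a Control replicate 2).

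S1pr3 encodes a receptor for sphingosine-1-phosphate. It was at 2.23, 2.19 and 1.93 FPKM in Dnmt1 Control and 2.24, 2.16 and 1.92 in Dnmt1 CKO, nearly the same values (log2 change -0.01, adjusted p = 0.99). It was at 2.001, 1.67 and 1.97 FPKM in Dnmt3a Control and 1.88, 1.97 and 1.90 in Dnmt3a CKO. The log2 change in the Dnmt3a line was 0.03, and -0.049 without the library labelled Dnmt3a Control replicate 2. An exon of the unlisted gene Gm32834 overlaps it on the other strand.

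Cd44 encodes the receptor for hyaluronan, a sugar polymer of the matrix. It was at 1.43, 1.51 and 1.53 FPKM in Dnmt1 Control and 1.56, 1.65 and 1.51 in Dnmt1 CKO. Dnmt3a Control held 1.52, 1.68 and 1.31 FPKM and Dnmt3a CKO 1.32, 1.07 and 1.23, where the highest CKO library just passed the lowest control. Its log2 change was 0.07 (adjusted p = 0.70) in the Dnmt1 line and -0.29 (SE 0.122, adjusted p = 0.66) in the Dnmt3a line. The 2 changes differed by 0.36 (SE 0.148, adjusted p = 0.41). Without the library labelled Dnmt3a Control replicate 2 the latter change was -0.21 and the difference 0.28.

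Steap4 encodes a membrane metalloreductase and was the lowest member. It was at 0.153, 0.263 and 0.140 FPKM in Dnmt1 Control, 0.238, 0.150 and 0.183 in Dnmt1 CKO, 0.146, 0.152 and 0.141 in Dnmt3a Control, and 0.269, 0.246 and 0.0992 in Dnmt3a CKO. All 4 groups overlap, at about 12 to 34 fragments a library.

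**Figure D2:**
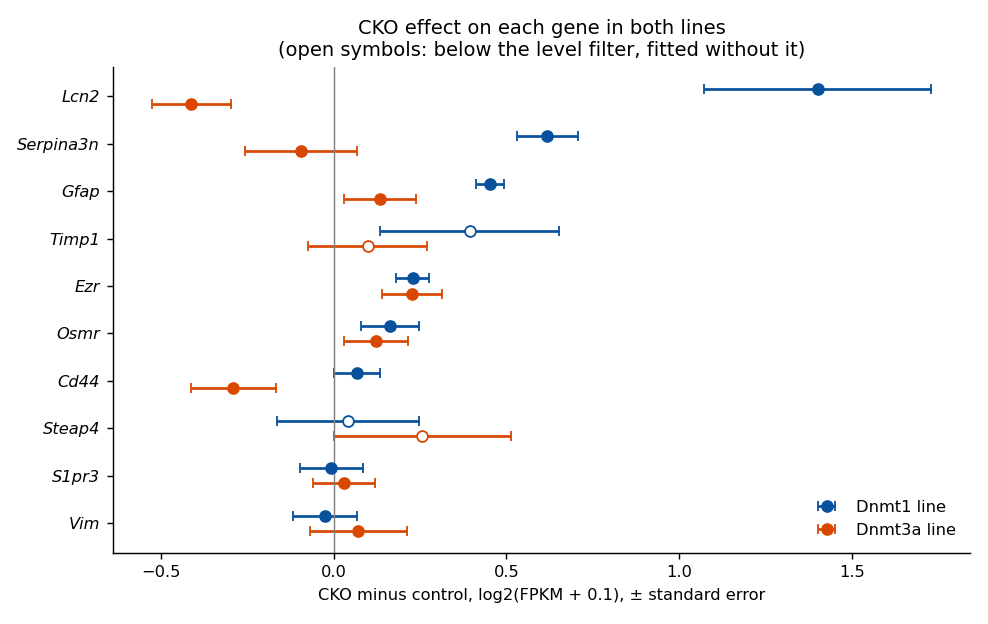
CKO minus control on the log2(FPKM + 0.1) scale for each gene in the Dnmt1 and the Dnmt3a line, as points with the standard error of the fit; open symbols mark Steap4 and Timp1, fitted without the level filter. Lcn2 lies at 1.40 and -0.41, Gfap at 0.45 and 0.13, and Ezr at 0.23 in both lines.

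Other genes known from reactive astrocytes were grouped by published classes. Of 4 further pan-reactive genes 3 were tested, and 1 rose in the Dnmt1 line: Aspg, which encodes an asparaginase, went from 0.676 to 0.960 FPKM (log2 0.45, adjusted p = 0.064). Cp and Hspb1 were tested and not called, and they went opposite ways. Cp went from 2.36 to 2.90 FPKM (log2 0.29, adjusted p = 0.22) and Hspb1 from 3.02 to 2.37 FPKM (-0.35, adjusted p = 0.30). Cxcl10, an interferon-induced chemokine, lay below the filter, at 0.107 FPKM in Dnmt1 Control and 0.691 in Dnmt1 CKO. Fitted by limma without the filter, its log2 change was 1.91 in the Dnmt1 line (SE 0.333, adjusted p = 0.096) and 0.06 in the Dnmt3a line. The difference between the lines was not called in that fit (adjusted p = 0.19). Of 12 genes known to respond to neuroinflammation 10 were tested, and 2 rose and 1 fell in the Dnmt1 line, with a median log2 change of 0.12. H2-D1, a class I histocompatibility antigen, rose from 8.62 to 12.9 FPKM (0.58, adjusted p = 0.032). Fkbp5, a co-chaperone of steroid receptors that glucocorticoids induce, rose from 8.52 to 13.8 FPKM (0.69, adjusted p = 0.039). Fbln5, an extracellular matrix protein, fell from 1.38 to 0.952 FPKM (-0.50, adjusted p = 0.088). Of 12 genes known to respond to ischemia 6 were tested, and 0 were called by limma (1 at an unadjusted p under 0.05), with a median of -0.10. Its members at the highest levels, S100a10 and Tm4sf1, were at 21.0 and 24.2 FPKM and at 3.24 and 2.97 FPKM in Dnmt1 Control and CKO. S100a10 (log2 0.20, adjusted p = 0.16) was called under median-ratio scaling, under quantile normalization and without Dnmt1 CKO replicate 1, with adjusted p down to 0.088. None of the genes of these 3 lists was called in the Dnmt3a line, where limma gave an unadjusted p under 0.05 to 0, 0 and 1 of them. Aspg, H2-D1, Fkbp5 and Fbln5 had log2 changes of 0.17, 0.25, 0.46 and -0.08 there. Their changes were not called as different between the lines (limma adjusted p = 0.77, 0.53, 0.84 and 0.46).

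**Figure D3:**
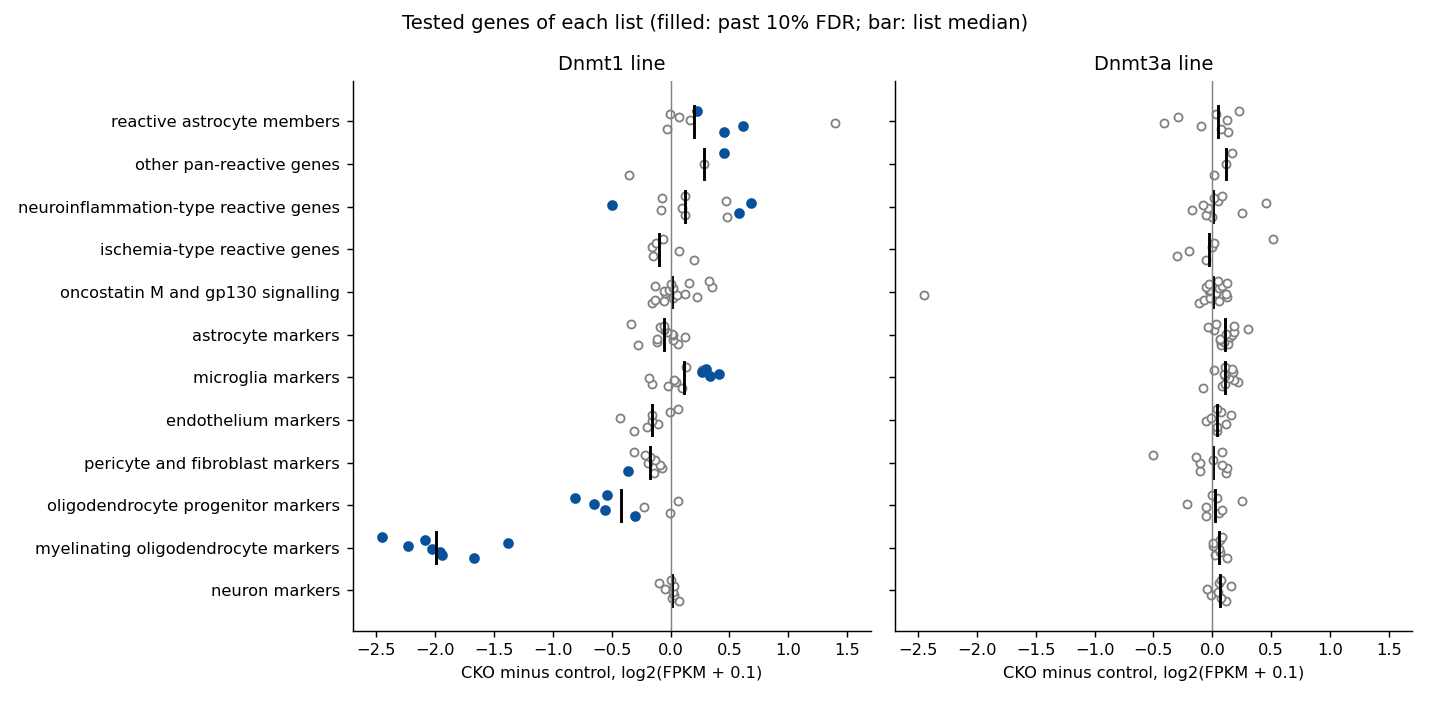
Log2 change, CKO minus control on the log2(FPKM + 0.1) scale, of each tested gene of 12 lists in the Dnmt1 line and the Dnmt3a line; filled points passed 10% FDR and the bar is the median of the list. In the Dnmt1 line the 8 myelin genes have a median of -1.99, and in the Dnmt3a line no point is filled.

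Ligands, receptors and signal carriers of the oncostatin M and gp130 pathway gave 16 tested genes of 21, of which limma called 0 in either line (3 and 0 at an unadjusted p under 0.05), with medians of 0.01 in both. Jak1, the kinase bound to gp130, was at 29.7 and 28.8 FPKM in Dnmt1 Control and CKO, and Cntfr, the receptor for ciliary neurotrophic factor, at 18.9 and 19.6. The ligand genes Osm, Lif, Il6, Clcf1 and Ctf1 all lay below the filter. Of 16 ligands and partners of CD44, ezrin, TIMP1, S1PR3 and lipocalin-2, 14 were tested and limma called 0 in either line (4 and 1 at an unadjusted p under 0.05). Slc22a17, a receptor of lipocalin-2, was at 197 and 196 FPKM in Dnmt1 Control and CKO, and S1pr1, a second sphingosine-1-phosphate receptor, at 32.6 and 28.7.

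No general astrocyte marker was called with Gfap in the Dnmt1 line. Limma called 0 of 14 in either line, with an unadjusted p under 0.05 for 4 (Dnmt1) and 5 (Dnmt3a), and the medians were -0.05 and 0.11. At that level 7.36% of all genes were called in the Dnmt3a line, and the share in the Dnmt1 line is not given here. In the Dnmt1 line 6 of the 14 were lower in CKO without overlap and 0 higher, where 14.4% of all genes had CKO lower without overlap. In the Dnmt3a line 6 were higher in CKO without overlap and 0 lower, where 7.34% of all genes had CKO higher without overlap. Their summed level was 1383 to 1456 FPKM in Dnmt1 Control, 1372 to 1392 in Dnmt1 CKO, 1389 to 1440 in Dnmt3a Control and 1503 to 1609 in Dnmt3a CKO. The ratio of Gfap, which is not in the list, to that sum was 3.25% to 3.61% in Dnmt1 Control and 4.66% to 5.06% in Dnmt1 CKO, and it was 2.79% to 3.14% and 2.68% to 3.32% in the Dnmt3a line. Glul, glutamine synthetase, was at 339 and 342 FPKM in Dnmt1 Control and CKO. Slc1a2, the main glutamate transporter of astrocytes, was at 332 and 308. In bulk cortex, more cells of a type and more RNA per cell cannot be told apart.

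**Figure D4:**
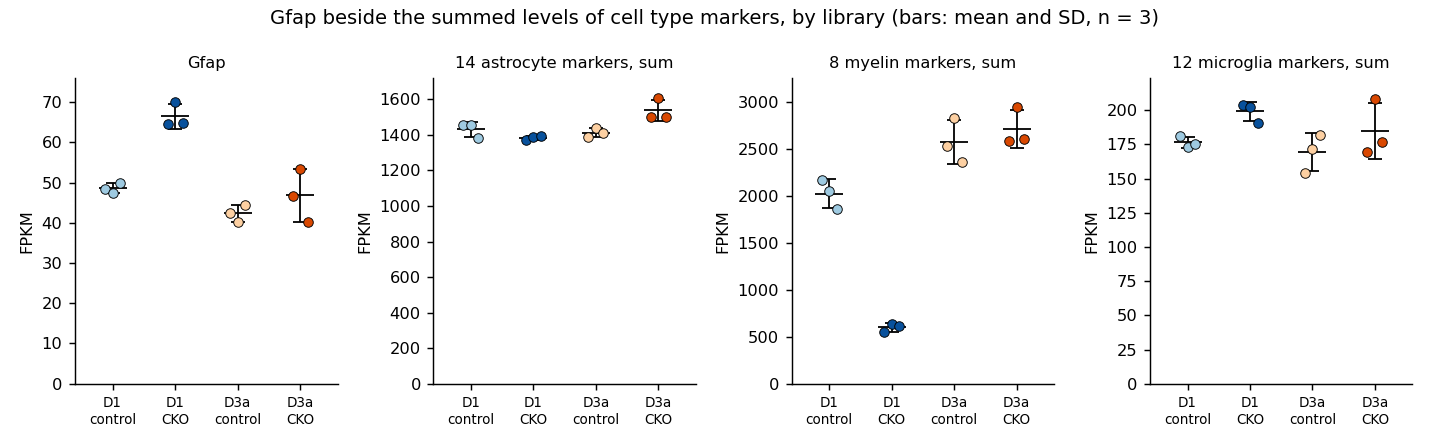
FPKM of Gfap and the summed FPKM of 14 astrocyte, 8 myelin and 12 microglia markers in each library, as points, with the mean and SD of each group of 3 (D1, Dnmt1 line; D3a, Dnmt3a line). In Dnmt1 CKO the astrocyte sum stays within 1372 to 1392 FPKM, the myelin sum drops to between 547 and 638 FPKM, and the microglia sum lies between 191 and 204 FPKM.

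Markers of some, not all, other cell types moved with the Dnmt1 groups. All 8 markers of myelinating oligodendrocytes fell in the Dnmt1 line, with a median log2 change of -1.99, and their sum was 1858 to 2165 FPKM in controls and 547 to 638 in CKO. Of 8 genes listed as oligodendrocyte progenitor markers 5 fell, with a median of -0.42. The sums of all 8 were 91.5 to 96.7 FPKM in controls and 64.2 to 70.0 in CKO. Those called were Sox10 (log2 -0.81), Neu4 (-0.65), Gpr17 (-0.56), Olig2 (-0.54) and Pdgfra (-0.30). Cspg4 (-0.0006), C1ql1 (-0.23) and Vcan (0.06) were not called. The paper used Olig2 to stain oligodendrocytes and describes SOX10 as a regulator of myelination, so neither is confined to progenitors. Of 12 microglia markers 4 rose and 0 fell, where 0.845% of all genes were called higher and 2.3% lower. The 4 were C1qb (22.0 to 29.5 FPKM, log2 0.42, adjusted p = 0.010), C1qa (22.3 to 28.3, 0.34, adjusted p = 0.013), C1qc (24.4 to 29.4, 0.27, adjusted p = 0.022) and Trem2 (6.00 to 7.41, 0.30, adjusted p = 0.099). The first 3 encode the chains of complement C1q and Trem2 a lipid-sensing receptor of microglia. The microglia sum, which includes the 3 C1q genes, was 173 to 181 FPKM in Dnmt1 Control and 191 to 204 in Dnmt1 CKO. Without overlap, 5 of the 12 were higher in CKO and 1 lower, where 6.39% and 14.4% of all genes were. The 1 lower was Itgam (4.02 to 3.53 FPKM, log2 -0.18, adjusted p = 0.34). P2ry12 went from 17.7 to 15.9 FPKM (-0.16, adjusted p = 0.44), with overlap. Of 9 pericyte and fibroblast markers 1 fell, Rgs5, from 31.6 to 24.6 FPKM (-0.36, adjusted p = 0.027). Of 8 endothelium markers 0 were called by limma (4 at an unadjusted p under 0.05), with a median log2 change of -0.16. Without overlap, 5 of these 8 were lower in CKO and 0 higher, where 14.4% and 6.39% of all genes were. The endothelium sum was 81.6 to 88 FPKM in Dnmt1 Control and 74.8 to 79.5 in Dnmt1 CKO. Cldn5 was at 27.1 and 21.9 FPKM (log2 -0.31) and Ly6c1 at 18.1 and 18.9 (0.07) in Dnmt1 Control and CKO. Of 8 neuron, 8 choroid plexus and ependyma and 4 blood cell markers 0 were called by limma (0, 0 and 3 at an unadjusted p under 0.05), with medians of 0.01, -0.03 and -0.74. Their sums in Dnmt1 Control and CKO were 1865 to 2014 and 1931 to 1975 FPKM for neurons, 122 to 278 and 87.4 to 252 for choroid plexus and ependyma, and 17.3 to 28.7 and 9.90 to 14.5 for blood. Osmr, Cd44, Vim, Timp1 and Lcn2 are also expressed by microglia, vascular or blood cells, and the part of these cells in the values above was not tested.

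No gene of any marker list was called in the Dnmt3a line. The myelin sum there was 2366 to 2825 FPKM in controls and 2582 to 2947 in CKO, and the microglia sum 154 to 182 and 170 to 208. The median log2 change of the 12 microglia markers was 0.11 in both lines. C1qb, C1qa, C1qc and Trem2 changed by 0.10, 0.11, 0.17 and 0.16 in the Dnmt3a line. Their changes were not called as different between the lines (limma adjusted p = 0.36, 0.56, 0.84 and 0.88). The sums of the choroid plexus and ependyma markers were uneven between libraries of the Dnmt3a line. They were 109, 127 and 9.84 FPKM in controls and 299, 424 and 6.15 in CKO, so that replicate 3 of each group stands apart. Ttr makes up most of the higher sums, at 4.57 to 120 FPKM in controls and 1.94 to 408 in CKO. Foxj1, of the same list, was at 1.91 to 2.25 and 1.65 to 2.47 FPKM. Among the CKO libraries of that line, all members but Lcn2, Cd44 and S1pr3 were also lowest in Dnmt3a CKO replicate 3. In Dnmt3a Control replicate 3, Gfap (44.4 FPKM) and Vim (13.4) were the highest of the controls and Ezr (14.1) the lowest. Without Dnmt3a CKO replicate 3 the log2 changes of Gfap, Vim and Ezr in that line were 0.24, 0.21 and 0.32. Their adjusted p were 0.36, 0.44 and 0.35. Without Dnmt3a Control replicate 3 these changes were 0.17, 0.12 and 0.20. The part of choroid plexus tissue in these values was not tested.

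The genes whose levels followed those of Gfap most closely over the 12 libraries (Pearson's r of log2 values, a description across libraries that share their groups) were Atf5 (r = 0.95), Zfp706 (0.95) and the complement gene C4b (0.95). Of these, C4b had a log2 change of 1.13 in the Dnmt1 line (adjusted p = 0.0051) and -0.11 in the Dnmt3a line, and Zfp706 of 0.36 (adjusted p = 0.015) and 0.02. For Serpina3n they included Gramd1c (0.89) and Adrbk2 (0.86), of which Gramd1c changed by 1.004 in the Dnmt1 line (adjusted p = 0.035). For Vim they were Eif3e, Psmg4 and Calu (0.95 each), with log2 changes of 0.02, 0.06 and -0.01 in the Dnmt1 line.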

How the data were processed

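RNA-seq was done on cortex from 12 mice, each a separate biological replicate per the labels, using TruSeq RNA libraries. Reads were mapped to mm10 by TopHat. The authors deposited the FPKM that Cufflinks gave each gene symbol; versions, and any scaling between libraries, are not given in the sources used here. FPKM is not a count, so no count test was run. Of 23850 deposited rows, 302 exact duplicates were removed, leaving 23548. The row with the highest mean was used for a symbol with several rows.

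All tests used log2(FPKM + 0.1), which understates changes of low genes. Rows averaging 0.5 FPKM or more, 14115 in all, were tested by limma 3.58.1 under R 4.3.3, with eBayes and a trend of variance on the mean, each line apart. P-values were adjusted after Benjamini and Hochberg over all these rows, and 10% FDR was the threshold. How the changes differ between the lines was tested across all 12 libraries. Steap4, Timp1 and Cxcl10 were fitted without the filter. In a table of FPKM, genes with 1 transcript show steps that are worth 1 fragment. From 671 such genes and an assumed fragment length of 200 bases, the depth of each library and the fragments behind low members were estimated. Intervals for counting error were not computed from these estimates.

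The members and the gene lists were chosen with earlier results of these data known. All 10 members are described. From each other list, genes past 10% FDR were named, at most 4 by adjusted p, or, where none passed, the 2 with the highest mean. Myelinating oligodendrocyte, neuron, choroid plexus and blood cell genes are given by counts, medians and sums, with gene values only for Ttr and Foxj1. All 8 genes of the progenitor list are named with their log2 changes. Slc1a2 and Atp1b2 are also named for the difference between the lines. For Gfap, Vim and Serpina3n the 3 rows with the highest Pearson's r over the libraries are named, except 1 that is not reported here. Ligands below the filter, and genes that share sequence or overlap with a member, are named in addition. Chosen after their values were seen, Cp, Hspb1, Cxcl10, Nes, Itgam, P2ry12, Ttr, Foxj1, Xist and a few list members with no values are also named.

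Alternative settings changed the pseudocount (1 or 0.01), the filter (0.1 FPKM, 1 FPKM or none), eBayes (no trend, or robust), the scaling (median ratio or quantiles) and the FDR (5%). Others added the replicate number as a block or Xist as a covariate, put the 4 groups in 1 model, or left out each library in turn. The procedure was tested on simulated data with known changes. Loci came from GENCODE M21 and promoters from RefSeq tables (GRCm38.p6), in which all 10 members were found. Python 3.11.15 with pandas 2.3.3, scipy 1.17.1 and matplotlib 3.10.9 was used.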

Additional observations from a re-analysis of the deposited data

Results flagged for a closer look

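Among the 8 tested members and the 14 astrocyte markers, the effect of the knockout on 3 genes differed between the lines in a test of the difference over all 12 libraries (limma, Benjamini-Hochberg adjustment), where 299 genes were called in all. For Lcn2 the log2 change in the Dnmt1 line exceeded that in the Dnmt3a line by 1.81 (adjusted p = 0.064), being higher in 3 of 3 Dnmt1 CKO libraries and lower in 3 of 3 Dnmt3a CKO libraries than in every control of the same line. Lcn2 passed the level filter only through Dnmt1 CKO, and a minimum mean of 1 FPKM removes it. For Atp1b2, the beta subunit of the astrocyte sodium pump, the difference was -0.25 (adjusted p = 0.064), with log2 changes of -0.06 in the Dnmt1 line and 0.19 in the Dnmt3a line. For Slc1a2 it was -0.21 (adjusted p = 0.097), with log2 changes of -0.11 and 0.09. Over the alternatives the adjusted p ranged from 0.012 to 0.24 for Lcn2, from 0.018 to 0.16 for Atp1b2 and from 0.056 to 0.27 for Slc1a2. The call was lost in 10 of 23 alternatives for Lcn2, in 12 of 24 for Atp1b2 and in 20 of 24 for Slc1a2. Without the library labelled Dnmt3a Control replicate 2 none of the 3 passed, while the differences were of like size, at 1.72, -0.24 and -0.21.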

How the results depend on the processing

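Gfap was called in the Dnmt1 line under all 19 alternatives, with a log2 change of 0.41 to 0.48 and an adjusted p of 0.0011 to 0.082. Serpina3n kept its call in 16 of 19 and Ezr in 6 of 19, and Lcn2 gained one in 3 (robust eBayes, all libraries in 1 model, and without Dnmt1 Control replicate 2). S100a10 gained one in 3. C1qa and C1qb were called in all 19. With 1 library left out, calls were lost by C1qc (Dnmt1 Control replicate 2), Rgs5 (Dnmt1 CKO replicate 1), H2-D1 (Dnmt1 Control replicate 2, Dnmt1 CKO replicates 2 and 3) and Fkbp5 (Dnmt1 Control replicates 2 and 3, Dnmt1 CKO replicates 1 and 3), by Aspg for all but Dnmt1 CKO replicate 1, and by Fbln5 and Trem2 for any of the 6. The 443 genes called in the Dnmt1 line became 262 at 5% FDR, and 198 to 340 with 1 library left out (lowest without Dnmt1 CKO replicate 1, and under 443 by over 1.5 times also without Dnmt1 Control replicate 2, Dnmt1 CKO replicate 2 or Dnmt1 CKO replicate 3), among them 1 to 2 members. The 2 genes called in the Dnmt3a line became 17 with no filter, 1 under a pseudocount of 1, a minimum mean of 1 FPKM, 5% FDR, 1 model of all libraries or Xist as a covariate, and 2 to 5 with 1 library left out, where 0 members were called. The 299 genes that differed between the lines became 205 to 326, with 0 to 1 members. The 1 member called there became 0 at a minimum mean of 1 FPKM or 5% FDR, and 2 with robust eBayes or median-ratio scaling. The causes were not tested, apart from fewer samples or genes by construction.

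Replicate numbers did not pair the samples: correlations of deviations between same-numbered libraries were -0.0609 to 0.0352 in the Dnmt1 line and -0.0792 to 0.0182 in the Dnmt3a line. With the replicate number as a block, 161 and 1 genes were called in the 2 lines, Gfap and Serpina3n among the former, and 0 members in the difference.

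Signs turned for genes near 0. In the Dnmt1 line, Vim came to 0.0053 (quantile) and 0.0013 (Xist), S1pr3 to 0.017 (median ratio), 0.0058 (quantile) and 0.015 (Xist), Glul to -0.037 (quantile) and Slc22a17 to 0.018 (median ratio). With 1 library left out, log2 changes in the Dnmt1 line ranged from -0.11 to 0.049 for Vim, -0.068 to 0.054 for S1pr3, -0.051 to 0.058 for Glul and -0.037 to 0.033 for Slc22a17. In the Dnmt3a line they ranged from -0.058 to 0.21 for Vim, -0.21 to 0.077 for Serpina3n and -0.049 to 0.074 for S1pr3. The differences ranged from -0.24 to 0.032 for Vim, -0.0030 to 0.10 for Osmr, -0.098 to 0.042 for S1pr3 and -0.092 to 0.058 for Ezr. Of 1492 log2 changes of single genes recomputed, 1339 kept direction and side of the threshold, 109 lost a call, 13 gained one and 31 changed sign. Lcn2, Timp1 and Steap4 rest on few fragments, which limits their precision.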
